A study of Mus musculus with 8 samples.

Results

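B cells and the lymphoid follicles they form were followed in the inflamed colon through a set of 32 genes. The set was listed by gene name, with earlier results of these data known. It held 24 B cell-intrinsic genes, which B lymphocytes themselves express, and 8 genes of follicle stroma and the neighbouring T zone. A gene counted as measured when a probe set of the array was annotated with its symbol and no other, and where several were, the brightest was used. 28 of the 32 were measured, of 22180 genes in all: 22 of the 24 B cell-intrinsic genes and 6 of the 8 stroma and T zone genes. Ighd had no probe set under its symbol, and Cd72, Ccl19 and Ccl21a were annotated only on probe sets that name other genes too, so these 4 are not described further.

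The tissue was middle colon from female mice, 9 weeks old, all of the strain C57BL/6-Trim58tm2313Arte. 4 were Trim58-/- and lacked the ubiquitin ligase gene Trim58 in the whole animal, and 4 were Trim58+/+. Both genotypes drank 4% dextran sodium sulfate (DSS), which injures the colon epithelium, for 7 days and plain water for 5 more, and tissue was taken on day 12. There was thus no colon without colitis in the comparison, which asks how the genotypes differ within it. Each mouse gave 1 whole-transcript array, and all values below are log2 signals.

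B cells recognise antigen through a surface immunoglobulin coupled to a signalling pair of chains, and the gut holds them in organised follicles as well as scattered in the mucosa. Stromal cells of a follicle release the chemokine Cxcl13, which draws B cells through the receptor Cxcr5, while the adjoining T zone uses other chemokines and the receptor Ccr7. Lymphotoxin from lymphocytes keeps the stroma in this state. In the colon, follicles lie in patches and isolated structures, and mature B cells that become plasma cells switch off much of the mature B cell programme.

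The arrays were alike in their medians (6.20 to 6.26 over the tested genes), as RMA, the normalization of the deposited values, brings about. They correlated with each other at 0.974 to 0.993. The number of arrays limits the precision. Trim58 itself averaged 5.05 ± 0.24 in Trim58-/- and 5.12 ± 0.09 in Trim58+/+ colon (SD, n = 4 each), a log2 difference of -0.07 (exact two-sided permutation p = 0.6), so its signal does not separate the genotypes as labelled. Both means lay near 5.03, the 90th percentile of 1105 olfactory receptor genes, a class with little signal in the gut, which limits this check. Where its probes sit relative to the deletion was not stated in the sources. Trim58-/- replicate 3 stood apart on the first principal component, at 0.21, against 21.64 to 37.78 in the other Trim58-/- arrays and -24.59 to -16.07 in the Trim58+/+ arrays. Enzyme genes of the exocrine pancreas (13 measured) averaged 11.20, 12.16 and 11.82 in Trim58-/- replicates 1, 2 and 4 and 6.23 in replicate 3, against 6.39 to 6.52 in Trim58+/+ arrays.

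B cell-intrinsic genes had higher signals in most Trim58-/- colons, with Cr2, Ms4a1, Bank1 and Cd22 at more than 2-fold, and among the stroma and T zone genes only Cxcl13 reached that size. Cr2, a receptor for complement fragments on mature B cells and on follicular dendritic cells, was the single member to pass the test over all genes, at 2.96-fold. Ighm, the heavy chain of immunoglobulin M, was the single member with a difference below 0. Its sign is that of its brightest probe set, and of its 7 probe sets 6 lay below 0 and 1 above. Of the 28 members, 27 had a difference above 0, as did 46.1% of all genes. 1 member was called higher at a limma adjusted p under 0.05, where 0.392% of all genes were, and 0 were called lower (0.185% of all genes). At an unadjusted limma p under 0.05, 22 of 28 were higher (6.22% of all genes) and 0 lower (8.1%). In 10 of 28 every Trim58-/- value lay above every Trim58+/+ value (3.79% of all genes), and in none the other way (5.02%). Differences of at least 2-fold upward were found in 5 of 28 members, against 0.609% of all genes.

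The B cell-intrinsic genes had a median log2 difference of 0.70 and the stroma and T zone genes one of 0.48, beside -0.01 over all genes. In the first class 21 of 22 lay above 0, 18 had an unadjusted p under 0.05 and 8 had no overlap between genotypes. In the second, 6 of 6 lay above 0, 4 had an unadjusted p under 0.05 and 2 had no overlap. Over all genes 46.1% lay above 0, 6.22% were higher at an unadjusted limma p under 0.05 and 3.79% were higher without overlap. Ltb, Lta, Ccr7 and Gpr183 in the second class are genes of lymphocytes too, so the classes do not separate B cells from stroma. The contrast between the classes was not tested, since the genes were chosen with earlier results of these data known. In whole tissue, more cells of a type and more RNA per cell cannot be told apart.

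**Figure D1:**
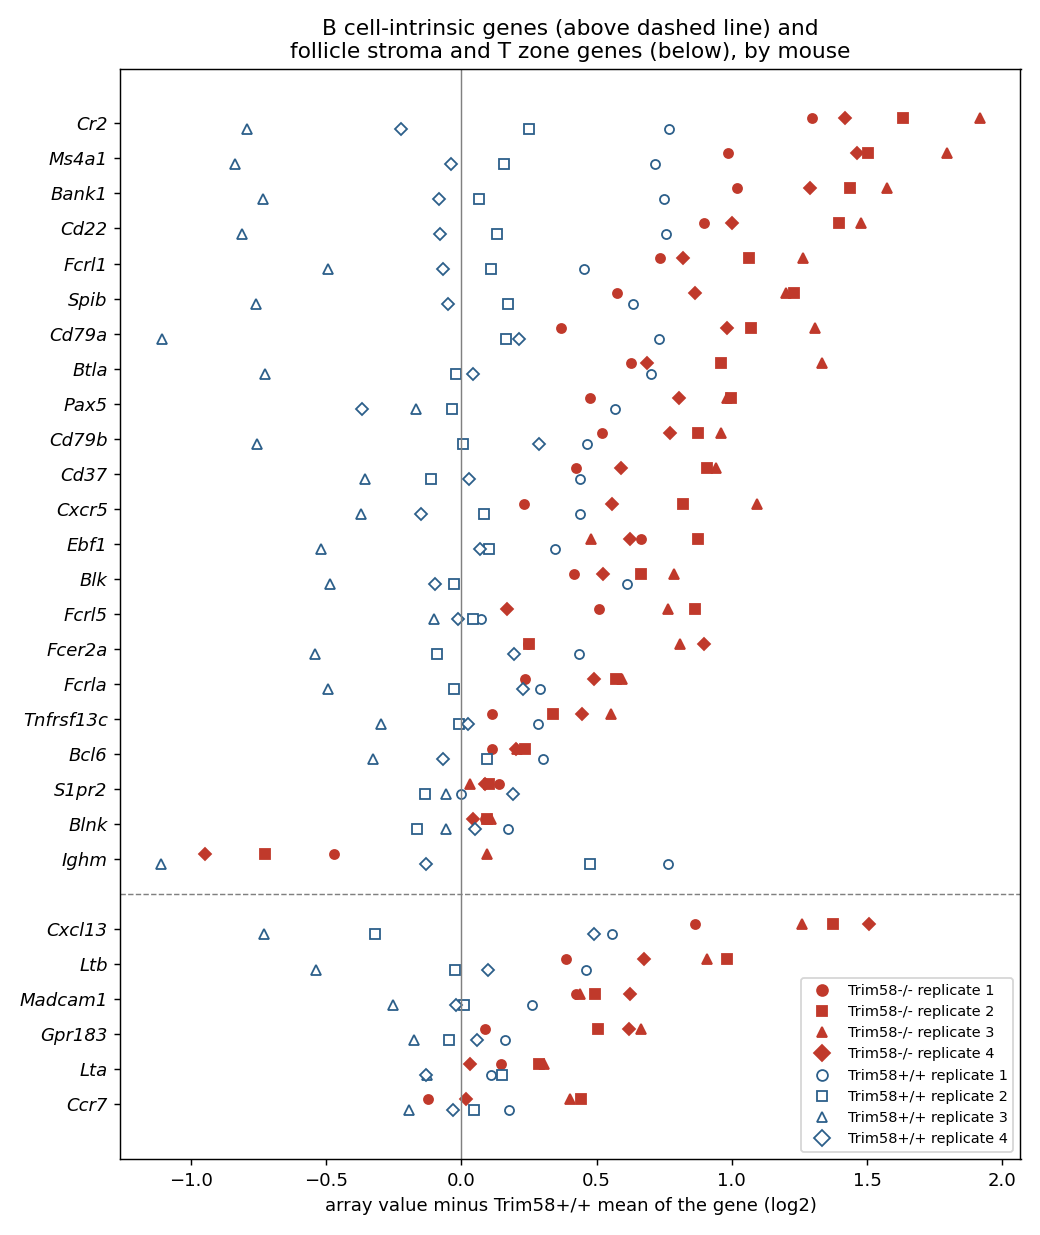
Each symbol is 1 mouse (filled, Trim58-/-; open, Trim58+/+; shape, replicate number), placed on the horizontal axis by its log2 value minus the Trim58+/+ mean of that gene, with 1 row for each of the 28 measured genes. Trim58+/+ replicate 3 (open triangle) is the lowest of the 8 arrays in 24 rows, and Trim58+/+ replicate 1 (open circle) lies above the lowest Trim58-/- value in 17.

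The order of the mice was similar from gene to gene. Averaged over the 22 B cell-intrinsic genes, Trim58-/- replicates 1 to 4 lay 0.46, 0.78, 0.92 and 0.63 above the Trim58+/+ mean, and Trim58+/+ replicates 1 to 4 lay at 0.49, 0.06, -0.54 and -0.0014 (log2). Trim58+/+ replicate 1 therefore stood slightly above Trim58-/- replicate 1, while the other Trim58+/+ mice were below all Trim58-/- mice. Trim58+/+ replicate 3 was the lowest of all 8 arrays for 19 of these 22 genes and for 5 of the 6 stroma and T zone genes. Trim58-/- replicate 3 was the highest of all 8 arrays for 13 of the 22, and it is the knockout array at the wild type level of the pancreatic enzyme genes. The B cell means were 0.46, 0.78 and 0.63 in the 3 Trim58-/- arrays with the pancreatic signal and 0.92 in the 1 without it. Any relation of the pancreatic signal to the B cell values was not tested. Over the 6 stroma and T zone genes, Trim58-/- replicates 1 to 4 lay at 0.30, 0.68, 0.66 and 0.58 and Trim58+/+ replicates 1 to 4 at 0.29, -0.03, -0.34 and 0.08, with no overlap between the genotypes.

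The promoters of some members are shown because they carry short motifs known from B cell and lymphoid gene control, and that of Cr2 because it is the member that passed the test. RefSeq promoters of GRCm38.p6, 300 bases long and ending 50 bases after the annotated start, were found for 25 of the 32 members, the first entry being used where a gene had several. Printed here are the 120 bases from 100 before to 20 after the start, on the strand of the gene. In Cr2 (chr1:195176700-195176819, minus strand) the capital marks the annotated start.
Cr2: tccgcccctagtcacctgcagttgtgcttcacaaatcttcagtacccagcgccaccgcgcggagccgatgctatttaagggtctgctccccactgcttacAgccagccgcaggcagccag
In the next 3 the capitals mark GAGGAAGT, a core bound by PU.1 and Spi-B (itself encoded by the member Spib), on either strand: Fcrl1 (chr3:87376287-87376406, plus), Btla (chr16:45224237-45224356, plus) and Cd37 (chr7:45238820-45238939, minus).
Fcrl1: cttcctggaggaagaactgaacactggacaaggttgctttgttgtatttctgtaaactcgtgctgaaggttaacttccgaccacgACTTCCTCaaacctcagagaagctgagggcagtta
Btla: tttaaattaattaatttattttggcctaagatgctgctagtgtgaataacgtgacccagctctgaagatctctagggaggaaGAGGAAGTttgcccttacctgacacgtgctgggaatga
Cd37: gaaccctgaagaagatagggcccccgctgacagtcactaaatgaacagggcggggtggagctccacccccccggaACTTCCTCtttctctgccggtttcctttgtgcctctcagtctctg
In Cd22 (chr7:30879009-30879128, minus) they mark TCCC and GGGA separated by any 2 bases, the palindrome of early B cell factor, the product of the member Ebf1.
Cd22: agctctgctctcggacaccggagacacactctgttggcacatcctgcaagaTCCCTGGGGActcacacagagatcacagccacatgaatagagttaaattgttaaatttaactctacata
In Madcam1 (chr10:79664459-79664578, plus) and Ltb (chr17:35194407-35194526, plus) they mark, on the opposite strand, GGGA and TTCC separated by any 2 bases, a form of the site of NF-kappaB, which lymphotoxin receptor signalling activates.
Madcam1: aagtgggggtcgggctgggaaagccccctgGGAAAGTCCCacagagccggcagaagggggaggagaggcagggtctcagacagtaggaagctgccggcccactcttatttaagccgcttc
Ltb: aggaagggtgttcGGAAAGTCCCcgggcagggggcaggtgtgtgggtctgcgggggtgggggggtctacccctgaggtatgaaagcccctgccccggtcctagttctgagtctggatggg

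Over the 300 bases and both strands, GAGGAAGT was found in 4 of the 25 member promoters (the 4 include Cd72) and in 3.2% of 32851 promoters of all genes. The early B cell factor palindrome was found in 1 of 25 and 0.904% of all, and the NF-kappaB form in 2 of 25 and 1.47% of all. The octamer ATGCAAAT of immunoglobulin promoters was found in 1 of 25, that of Blnk, and in 1.74% of all. None of the 4 motifs overlaps another in the windows printed. The matches describe these letters only. Fcrl1, Btla and Cd37 have the PU.1 and Spi-B core 15 to 25 bases before the start, and Madcam1 and Ltb the NF-kappaB form 70 and 87 bases before it.

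Among the antigen receptor genes, the signalling chains and the heavy chain, by its brightest probe set, had differences of opposite sign. Cd79a, 1 of the 2 signalling chains, read 8.51, 9.21, 9.45 and 9.12 in Trim58-/- replicates 1 to 4 and 8.87, 8.30, 7.03 and 8.35 in Trim58+/+ replicates 1 to 4. The genotypes overlapped, with Trim58-/- replicate 1 below Trim58+/+ replicate 1. Its log2 difference was 0.93 ± 0.34 (SE, limma adjusted p = 0.243). Cd79b, its partner, read 7.98, 8.33, 8.42 and 8.23 in Trim58-/- colon and 7.92, 7.46, 6.70 and 7.74 in Trim58+/+ colon. Here the genotypes did not overlap, although Trim58-/- replicate 1 and Trim58+/+ replicate 1 were close, and the difference was 0.78 ± 0.23 (limma adjusted p = 0.146).

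Ighm had 7 probe sets under its symbol alone, and 1 differed from the others in sign. The brightest read 11.33, 11.07, 11.89 and 10.85 in Trim58-/- colon and 12.56, 12.27, 10.69 and 11.67 in Trim58+/+ colon. Trim58+/+ replicate 3 was again the lowest array and the genotypes overlapped (difference -0.51 ± 0.37 SE, limma adjusted p = 0.586). The second by brightness differed by -0.99 ± 0.31 (SE, limma adjusted p = 0.178 over all probe sets), with overlap. Of the 7, 6 had a difference below 0, down to -1.40, and 1 above 0. The exception, the third by brightness, read 10.19, 10.60, 10.77 and 10.44 in Trim58-/- colon and 10.02, 9.42, 8.42 and 9.58 in Trim58+/+ colon, with no overlap and a difference of 1.14 ± 0.28 (SE, limma adjusted p = 0.109 over all probe sets). 0 of the 7 passed the test. Another 3 probe sets name Ighm together with immunoglobulin variable region genes. Whether related immunoglobulin RNA contributes to the 7 was not tested, and the values of Ighm are given as uncertain. Without Trim58+/+ replicate 3 the difference of the brightest was -0.88 (limma adjusted p = 0.169).

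**Figure D2:**
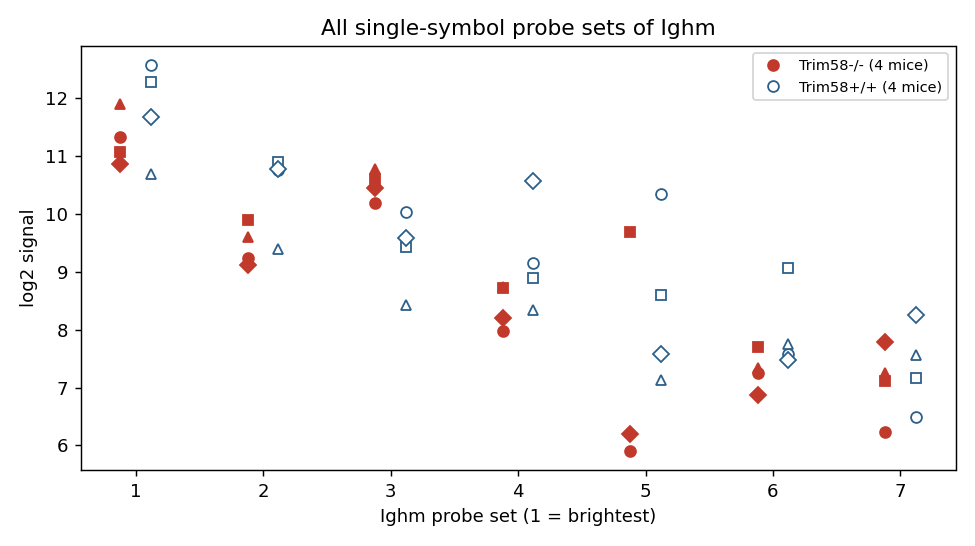
The vertical axis gives the log2 signal of the 7 single-symbol probe sets of Ighm, ordered along the horizontal axis from the brightest, with filled symbols for the 4 Trim58-/- mice, open symbols for the 4 Trim58+/+ mice and the shape giving the replicate number. Only in the third probe set do all Trim58-/- values lie above all Trim58+/+ values.

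The co-receptor genes included the member with the largest difference, Cr2. It read 7.75, 8.09, 8.37 and 7.88 in Trim58-/- colon and 7.22, 6.70, 5.66 and 6.23 in Trim58+/+ colon. All Trim58-/- values were higher, and the spread was wider in Trim58+/+ mice (8.02 ± 0.27 against 6.46 ± 0.67, SD, n = 4 each). Cr2 rose by 1.57 ± 0.28 on the log2 scale (SE, 95% interval 0.94 to 2.20, limma adjusted p = 0.0440). That call rests close to the threshold: it was lost on leaving out any single array other than Trim58+/+ replicate 1, with limma adjusted p between 0.0522 (without Trim58+/+ replicate 3) and 0.133 (without Trim58-/- replicate 2). The adjusted p was 0.0739, 0.0629 and 0.0726 without Trim58-/- replicates 1, 3 and 4, 0.123 and 0.113 without Trim58+/+ replicates 2 and 4, and 0.0179 without Trim58+/+ replicate 1. Over these 8 fits the log2 difference of Cr2 lay between 1.30 and 1.82.

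Cd22, a lectin that restrains antigen receptor signalling, read 8.03, 8.53, 8.61 and 8.14 in Trim58-/- colon and 7.89, 7.26, 6.32 and 7.05 in Trim58+/+ colon. The genotypes did not overlap, and the difference of 1.19 ± 0.28 (SE) missed the threshold (limma adjusted p = 0.0920). Fcer2a, the low-affinity receptor for immunoglobulin E on mature B cells, read 6.76, 6.76, 7.32 and 7.41 in Trim58-/- colon and 6.95, 6.42, 5.97 and 6.71 in Trim58+/+ colon. It overlapped between genotypes (difference 0.55, limma adjusted p = 0.284).

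The surface protein Ms4a1, the target of B cell-depleting antibodies, read 7.92, 8.44, 8.73 and 8.40 in Trim58-/- colon and 7.65, 7.09, 6.10 and 6.90 in Trim58+/+ colon. Every Trim58-/- value was higher, and the difference of 1.44 ± 0.29 (SE) had a limma adjusted p of 0.0613. Btla, an inhibitory receptor of B and T cells, had a difference of 0.90, Cd37, a tetraspanin of mature B cells and other leukocytes, one of 0.72, and Tnfrsf13c, the receptor for the survival factor BAFF, one of 0.36. These 3 genes overlapped between genotypes, and their limma adjusted p lay between 0.0984 and 0.240.

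Of the signalling genes, Bank1, a scaffold of the antigen receptor pathway, read 8.24, 8.66, 8.79 and 8.51 in Trim58-/- colon and 7.97, 7.28, 6.48 and 7.14 in Trim58+/+ colon. It did not overlap and differed by 1.33 ± 0.26 (SE, limma adjusted p = 0.0584). Blk, a B cell kinase of the Src family, had a difference of 0.60 with overlap (limma adjusted p = 0.187). Blnk, the adaptor that links the receptor to downstream enzymes, varied little among the mice. It read 9.45, 9.46, 9.48 and 9.41 in Trim58-/- colon and 9.54, 9.20, 9.31 and 9.42 in Trim58+/+ colon, a difference of 0.08 (95% interval -0.11 to 0.27, limma adjusted p = 0.720).

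All 3 Fc receptor-like genes lay above 0. Fcrl1, a co-activating receptor of B cells, read 7.06, 7.39, 7.59 and 7.15 in Trim58-/- colon and 6.78, 6.44, 5.83 and 6.26 in Trim58+/+ colon. It did not overlap, and its difference was 0.97 ± 0.19 (SE, limma adjusted p = 0.0576). Fcrl5, a receptor of innate-like B cells in the mouse, read 6.14, 6.49, 6.39 and 5.80 in Trim58-/- colon and 5.70, 5.67, 5.53 and 5.61 in Trim58+/+ colon. It was the B cell gene with the least spread in Trim58+/+ mice (SD 0.08), did not overlap and differed by 0.58 (limma adjusted p = 0.0977). Fcrla, an intracellular relative, differed by 0.47 with overlap (limma adjusted p = 0.212).

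Of the transcription factors, Pax5, which keeps B cell identity, read 6.29, 6.82, 6.80 and 6.63 in Trim58-/- colon and 6.39, 5.79, 5.65 and 5.45 in Trim58+/+ colon. Only Trim58+/+ replicate 1 reached into the Trim58-/- range, and the difference was 0.82 ± 0.19 (SE, limma adjusted p = 0.0924). Ebf1, which specifies B cells and is also expressed in stromal cells and adipocytes, read 7.73, 7.94, 7.54 and 7.69 in Trim58-/- colon and 7.41, 7.17, 6.55 and 7.14 in Trim58+/+ colon. It did not overlap (difference 0.66, limma adjusted p = 0.110). Spib, shared by B cells, M cells and plasmacytoid dendritic cells, had a difference of 0.97 with overlap (limma adjusted p = 0.125). Bcl6, the regulator of germinal centre B cells and follicular helper T cells, differed by 0.19 (95% interval -0.08 to 0.46, limma adjusted p = 0.543).

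Of the receptors that place B cells in the follicle, Cxcr5 read 7.15, 7.74, 8.02 and 7.48 in Trim58-/- colon and 7.36, 7.00, 6.55 and 6.77 in Trim58+/+ colon, with Trim58-/- replicate 1 inside the Trim58+/+ range. Its difference was 0.68 ± 0.20 (SE, limma adjusted p = 0.157). S1pr2, which confines B cells to germinal centres, read 7.26, 7.22, 7.15 and 7.20 in Trim58-/- colon and 7.11, 6.98, 7.06 and 7.31 in Trim58+/+ colon. Its difference of 0.09 (95% interval -0.10 to 0.28) did not pass (limma adjusted p = 0.695).

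**Figure D3:**
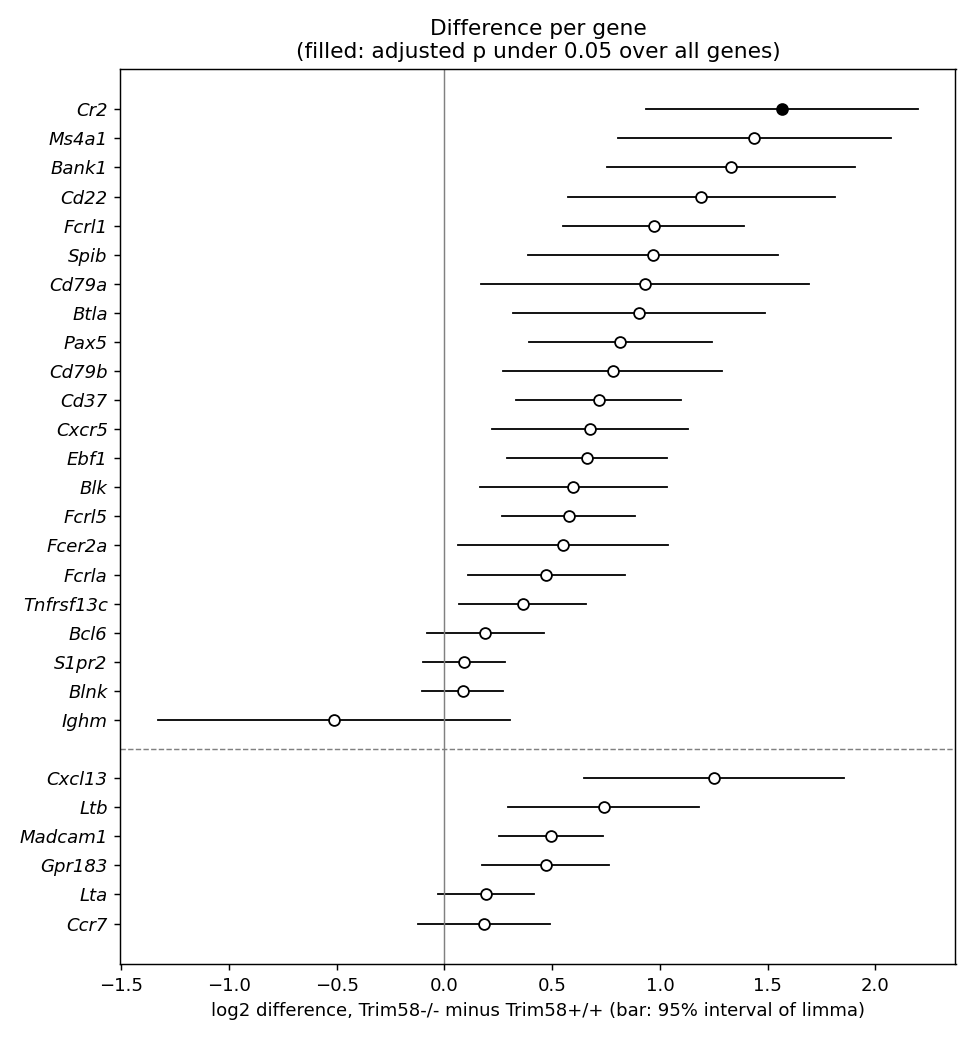
The horizontal axis gives the log2 difference, Trim58-/- minus Trim58+/+, of each measured gene with its 95% interval from limma, for B cell-intrinsic genes above the dashed line and stroma and T zone genes below it. Cr2 carries the single filled point, for an adjusted p under 0.05 over all 22180 genes, and the intervals of 6 genes (Bcl6, S1pr2, Blnk, Ighm, Lta and Ccr7) include 0.

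On the stromal side, Cxcl13 read 10.73, 11.23, 11.12 and 11.37 in Trim58-/- colon and 10.42, 9.54, 9.13 and 10.35 in Trim58+/+ colon. The genotypes did not overlap, and the difference was 1.25 ± 0.27 (SE, limma adjusted p = 0.0788). Madcam1, the addressin through which lymphocytes enter the gut wall and which marks vessels and some follicle stroma, read 7.42, 7.49, 7.44 and 7.62 in Trim58-/- colon and 7.26, 7.01, 6.75 and 6.98 in Trim58+/+ colon. It did not overlap and differed by 0.50 ± 0.11 (SE, limma adjusted p = 0.0797).

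Of the lymphotoxin genes, Ltb, the membrane-anchoring chain, read 7.61, 8.20, 8.13 and 7.90 in Trim58-/- colon and 7.68, 7.20, 6.69 and 7.32 in Trim58+/+ colon. Trim58+/+ replicate 1 lay inside the Trim58-/- range, and the difference was 0.74 ± 0.20 (SE, limma adjusted p = 0.125). Lta, the other chain, averaged 5.28 ± 0.13 in Trim58-/- and 5.09 ± 0.15 in Trim58+/+ colon (SD, n = 4 each). Its difference of 0.19 (95% interval -0.03 to 0.41) did not pass (limma adjusted p = 0.425). All 28 members, Lta included, had a mean above the 90th percentile (5.03) of 1105 olfactory receptor genes, taken here as a class with little signal in the gut. Lta lay close to that value, as did Trim58 in both genotypes (5.05 in Trim58-/- and 5.12 in Trim58+/+ colon). The comparison therefore does not establish that Lta was detected.

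The 2 position receptors of this class both overlapped between genotypes. Ccr7, which guides T cells, B cells and dendritic cells to the T zone, read 6.31, 6.88, 6.84 and 6.45 in Trim58-/- colon and 6.61, 6.48, 6.24 and 6.40 in Trim58+/+ colon. Trim58-/- replicate 1 lay below 3 of the Trim58+/+ arrays, and the difference was 0.18 (95% interval -0.12 to 0.49, limma adjusted p = 0.609). Gpr183, an oxysterol receptor that moves B cells to the outer follicle, read 6.43, 6.85, 7.01 and 6.96 in Trim58-/- colon and 6.51, 6.30, 6.17 and 6.40 in Trim58+/+ colon. It overlapped through Trim58-/- replicate 1 (difference 0.47 ± 0.13 SE, limma adjusted p = 0.138).

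The number of members past the test depended on single arrays. Without Trim58+/+ replicate 1, 9 members passed, all higher: Cr2, Cd22, Blk, Bank1, Ms4a1, Cd37, Fcrl1, Pax5 and Madcam1. In that fit 0.546% of all genes were called higher and 0.14% lower. Without Trim58-/- replicate 4 only Fcrl5 passed (0.298% of all genes higher). Without any 1 of the other 6 arrays 0 members passed, where between 0.108% and 0.775% of all genes were called higher. In each of the 8 fits 27 members lay above 0. The median of the B cell-intrinsic genes was 0.55 without Trim58+/+ replicate 3 and 0.84 without Trim58+/+ replicate 1, its lowest and highest values. That of the stroma and T zone genes lay between 0.41 (without Trim58+/+ replicate 3) and 0.56 (without Trim58-/- replicate 1). A further fit left out Trim58-/- replicate 3 and Trim58+/+ replicate 3, a choice made after the data were seen. Only the first of these stood apart on the first principal component. Trim58+/+ replicate 3 lay at -21.71, within the Trim58+/+ range of -24.59 to -16.07. It was the lowest array for 24 members, so leaving it out by itself lowers their differences. In this further fit the medians were 0.47 and 0.39, and 0 members passed the adjusted test (0.577% of all genes higher, 0.289% lower). In that fit 16 members were higher at an unadjusted limma p under 0.05 (5.57% of all genes) and 1, Ighm, was lower (8.31% of all genes), at a difference of -1.08 (limma adjusted p = 0.0717). Ighm was also lower at an unadjusted p under 0.05 without Trim58+/+ replicate 3 alone (9.16% of all genes lower).

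**Figure D4:**
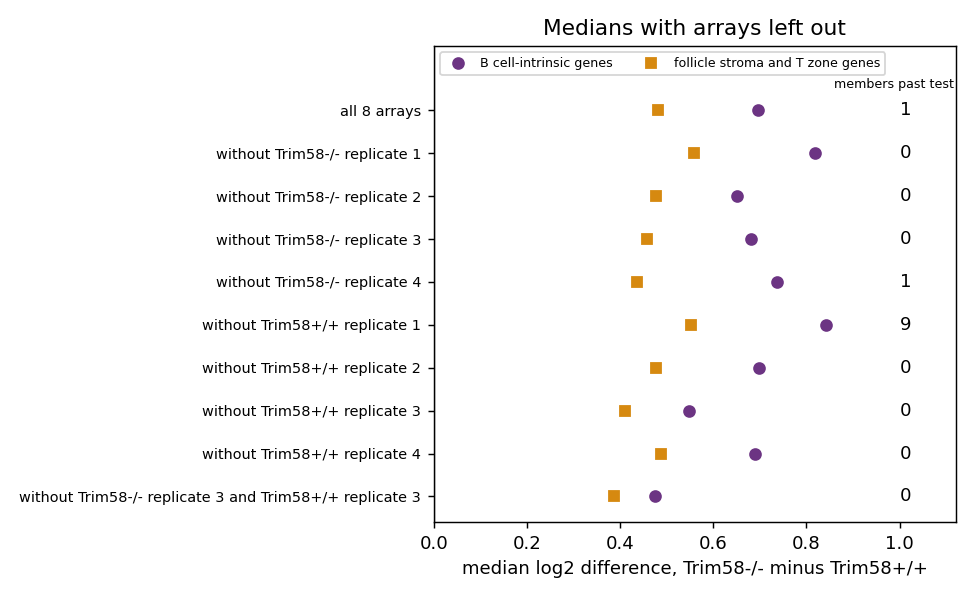
Rows give the fit with all 8 arrays and the fits without the arrays named, the horizontal axis the median log2 difference, Trim58-/- minus Trim58+/+, over the B cell-intrinsic genes (circles) and the stroma and T zone genes (squares), and the numbers at the right how many of the 28 genes passed the adjusted test. Circles lie right of squares in every row, and the count reaches 9 only without Trim58+/+ replicate 1.

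Other B cell genes, listed beside the members, were likewise mostly above 0. Of 22 measured, 21 had a difference above 0 (46.1% of all genes), 16 of them with an unadjusted limma p under 0.05 (6.22%). None passed over all genes, and the median was 0.46. Btk, a kinase of the antigen receptor pathway, read 6.73, 7.10, 7.16 and 6.87 in Trim58-/- colon and 6.56, 6.23, 5.96 and 6.30 in Trim58+/+ colon (difference 0.70, limma adjusted p = 0.0599). Ikzf3, a transcription factor of lymphocytes, differed by 1.00 (limma adjusted p = 0.0739). Neither gene overlapped between genotypes.

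General leukocyte genes, which B cells share, lay above 0 in the same way. All 10 lay above 0 (46.1% of all genes), 7 of them with an unadjusted limma p under 0.05 (6.22%). None passed the adjusted test, and the median was 0.65. Ptprc, the leukocyte common antigen, read 9.63, 10.18, 10.05 and 9.71 in Trim58-/- colon and 9.45, 8.77, 8.50 and 8.99 in Trim58+/+ colon (difference 0.96, limma adjusted p = 0.0645). Lcp1 differed by 0.82 (limma adjusted p = 0.102). The list mean was 0.35, 0.93, 0.81 and 0.53 above the Trim58+/+ mean in Trim58-/- replicates 1 to 4, and 0.37, -0.10, -0.57 and 0.29 in Trim58+/+ replicates 1 to 4. Its lowest array was again Trim58+/+ replicate 3. The part of general leukocyte RNA in the B cell values was not tested.

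T cell, germinal centre and plasma cell genes had medians near 0, and their difference from the members was not tested. Of 14 T cell markers 7 lay above and 7 below 0 (median 0.01), with 0 past the adjusted test. The 2 with the smallest p went in opposite directions, each without overlap between genotypes. Cd2 differed by 0.54 (limma adjusted p = 0.263) and Bcl11b by -0.18 (limma adjusted p = 0.313). Cd3e, a chain of the T cell receptor complex, read 6.45, 6.99, 7.04 and 6.94 in Trim58-/- colon and 7.13, 6.85, 6.59 and 7.27 in Trim58+/+ colon (difference -0.11, limma adjusted p = 0.835). Of 11 germinal centre and follicular helper T genes, 6 lay above and 5 below 0 (median 0.10), and 0 passed. The co-stimulator gene Icos had the smallest p there, at a difference of 0.42 (limma adjusted p = 0.238). Efnb1 had the next smallest, at a difference of -0.18 without overlap between genotypes (limma adjusted p = 0.329).

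Plasma cell markers held differences of both signs, 6 above and 5 below 0 of 11, with a median of 0.07 and 0 past the adjusted test. At an unadjusted limma p under 0.05, 2 were higher (6.22% of all genes) and 4 lower (8.1%). Without overlap between genotypes, 1 was higher (3.79% of all genes) and 3 lower (5.02%). The markers described next were all lower, and the 6 above 0 are not described singly. Jchain, which joins immunoglobulin A and M units, read 8.86, 9.25, 9.53 and 7.98 in Trim58-/- colon and 10.39, 10.55, 9.10 and 10.82 in Trim58+/+ colon. It overlapped only through Trim58+/+ replicate 3 (difference -1.31 ± 0.40 SE, limma adjusted p = 0.158). Tnfrsf17, a survival receptor of plasma cells, read 4.53, 5.29, 5.11 and 4.62 in Trim58-/- colon and 5.37, 5.73, 5.42 and 5.76 in Trim58+/+ colon, without overlap (difference -0.68, limma adjusted p = 0.115). Eaf2, a transcription elongation factor used here as a plasma cell marker, differed by -0.39 (limma adjusted p = 0.121).

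**Figure D5:**
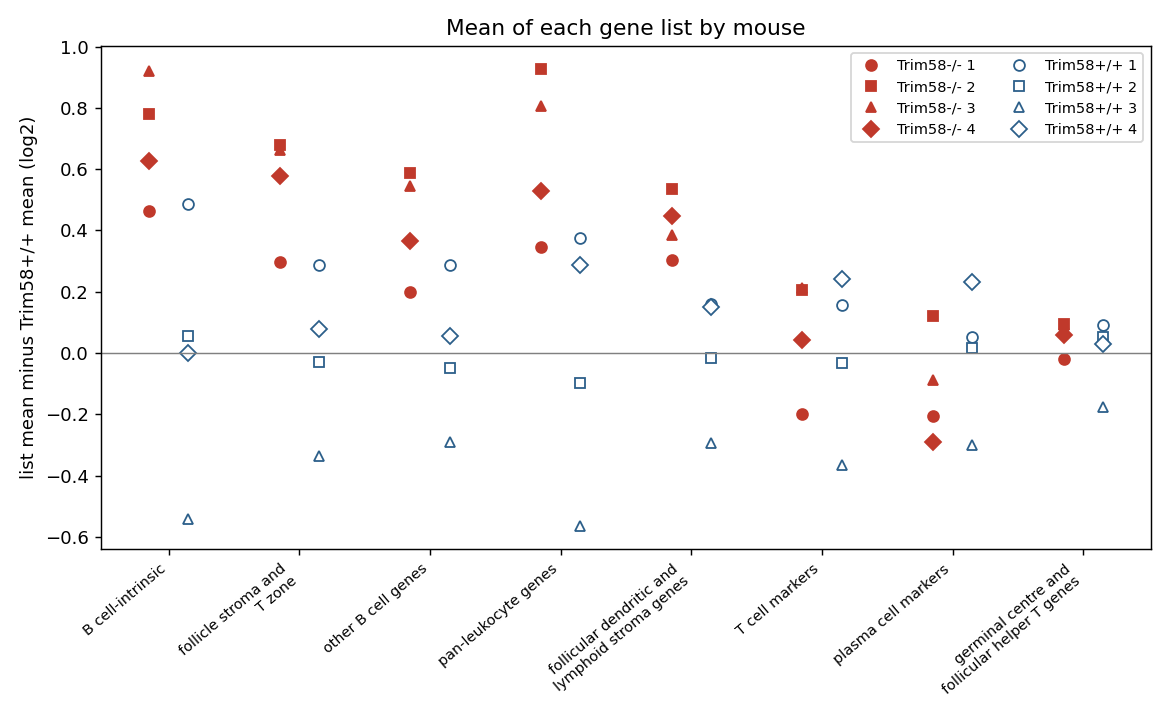
The vertical axis gives the mean of each gene list in each mouse minus the Trim58+/+ mean of that list (log2), with filled symbols for Trim58-/- and open symbols for Trim58+/+ mice and the shape giving the replicate number. Trim58+/+ replicate 3 (open triangle) is the lowest mouse in all 8 lists, and the genotypes overlap in 6 of the 8 lists, the exceptions being follicle stroma and T zone and the follicular dendritic and lymphoid stroma list.

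Genes of follicular dendritic cells and lymphoid stroma were the only neighbouring list beside the M cell genes with calls. Of 14 measured, 12 lay above 0 (46.1% of all genes), with a median of 0.37. The adjusted test was passed by 2, both higher (0.392% of all genes). Bst1, an ectoenzyme of lymphoid stroma and myeloid cells, rose by 1.02 ± 0.15 (SE, limma adjusted p = 0.0180), at 7.06, 7.66, 7.23 and 7.00 in Trim58-/- colon and 6.24, 6.16, 6.02 and 6.43 in Trim58+/+ colon. Icam1, an adhesion molecule that many inflamed cell types express, rose by 0.79 ± 0.14 (SE, limma adjusted p = 0.0361), at 7.77, 8.26, 7.99 and 7.75 in Trim58-/- colon and 7.36, 7.08, 6.91 and 7.28 in Trim58+/+ colon. Neither gene overlapped between genotypes, and neither is restricted to follicles.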

How the data were processed

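The deposited table gives log2 values that the authors made by RMA in Affymetrix Expression Console 1.4, per the submitters' processing notes. RMA gives all arrays 1 common distribution of values and compresses differences near background, so folds of dim genes are understated. Probe filters and scan batches were not stated in the sources. Of 41345 probe sets, 23521 carried 1 symbol, 1814 several and 16010 none in the platform annotation. Of those with 1 symbol, 23328 were matched by Entrez identifier and took the reference symbol (assembly GRCm38.p6), whether or not it differed. 1 probe set a gene, the brightest over all 8 arrays, left 22180 genes, with no filter on dim ones.

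The comparison of genotypes used limma 3.58.1 (R 4.3.3), its functions lmFit and eBayes without covariates, p-values adjusted by Benjamini-Hochberg over all genes, and a threshold of 0.05. The script was tested on simulated data. The members, lists, motifs and alternatives were chosen with earlier results of these data known, so no score over the members was tested. Named beside the members were, from each list, genes past the threshold (at most 4), the 2 with the smallest p, and Jchain, Cd3e, Lyve1, Glycam1, Gp2 and Ptprc. Some items are not reported here. Motifs were searched as exact letters.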

Additional observations from a re-analysis of the deposited data

Results flagged for a closer look

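In groups of 4, an array was singled out when its gap to the nearest other exceeded Dixon's 95% critical value as a share of the group's range. Of 116 groups examined (58 genes or list means in each genotype) 4 met this, where chance gives about 1 in 20. None of the 28 members was among them. Cd3e was lowest in Trim58-/- replicate 1, at 6.45 against 6.94 to 7.04 in the others, and Lyve1, of lymphatic vessels, was lowest in Trim58+/+ replicate 3, at 8.36 against 9.08 to 9.22. The pancreatic enzyme genes Ctrl and Try4 were lowest in Trim58-/- replicate 3, at 6.93 and 7.05 against 11.98 to 12.87 and 11.91 to 12.82 in the others.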

How the results depend on the processing

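Of 503 repeated values of single members, 474 kept direction and side of the threshold, 17 became past it, 11 ended the call (all of Cr2) and 1 turned: Ighm was 0.0898 with the pancreatic mean as covariate. Members past the test, 1 as reported, were 3 with array weights, 2 with repeated quantile normalization, 2 with equal array medians, 4 without the dimmest genes (14787 kept), 0 with the replicate block, 0 with the pancreatic covariate, 0 to 9 leaving out 1 array, and 0 without replicate 3 of both genotypes. Genes past the test, 128 as reported, were 199 with array weights, 203 without the dimmest genes, 64 with the replicate block, 2 with the pancreatic covariate and 25 to 252 leaving out 1 array. With the trend and robust variance Fcrl1 passed in place of Cr2 (Cr2 limma adjusted p = 0.0632). Same-numbered mice did not deviate together (correlations -0.14, -0.16, 0.04 and 0.05), so the numbers were not taken as pairs. Trim58 differed by -0.18 to 0.0029 leaving out 1 array, the upper end without Trim58-/- replicate 3, and by 0.0211 without replicate 3 of both genotypes. With the pancreatic covariate the medians were 0.91 for B cell-intrinsic genes and 0.53 for stroma and T zone genes, and 28 of 28 members lay above 0. The cause of these changes was not tested. The covariate takes the value of 3 of 4 Trim58-/- arrays, so it shares most of its variation with genotype.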

Other observations

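Genes of the vessels and epithelium that belong to lymphoid follicles held differences of both signs. Of 9 lymphatic and high endothelial vessel genes 6 lay above and 3 below 0 (median 0.08), with 0 past the adjusted limma test. At an unadjusted limma p under 0.05, 1 was higher (6.22% of all genes) and 2 lower (8.1%). Lyve1, a receptor of lymphatic vessels, differed by 0.09 (limma adjusted p = 0.876), and Glycam1, a ligand made by high endothelial vessels, by -0.35 (0.548). Chst4, a sulfotransferase of such vessels that colon epithelium may also express, differed by -0.31 (0.232), and the scavenging chemokine receptor gene Ackr4 by -0.39 (0.278).

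Of 9 M cell and follicle epithelium genes, 6 lay above and 3 below 0 (median 0.15). The adjusted limma test was passed by 1, higher (0.392% of all genes). At an unadjusted limma p under 0.05, 4 were higher (6.22% of all genes) and 1 lower (8.1%). Without overlap between genotypes, 2 were higher (3.79% of all genes) and 1 lower (5.02%). Tnfaip2, which M cells and myeloid cells express, rose by 1.03 (limma adjusted p = 0.0460), at 7.54, 8.26, 8.07 and 7.65 in Trim58-/- colon and 7.10, 6.84, 6.41 and 7.05 in Trim58+/+ colon. Ccl9, a chemokine of follicle epithelium and myeloid cells, differed by 0.88 (limma adjusted p = 0.0811). Gp2, an M cell receptor that pancreatic acinar cells also make in quantity, read 9.86, 11.31, 4.99 and 10.47 in Trim58-/- colon and 4.61, 4.80, 4.85 and 5.34 in Trim58+/+ colon, so its high values were in the 3 arrays with the other pancreatic genes.

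Of 9 dendritic cell markers 4 lay above and 5 below 0 (median -0.05), with 0 past the adjusted limma test. At an unadjusted limma p under 0.05, 1 was higher (6.22% of all genes) and 0 lower (8.1%). The 1 was Ccr2, a chemokine receptor shared with monocytes (difference 0.67, limma adjusted p = 0.171). Siglech, of plasmacytoid dendritic cells, differed by -0.44 (0.381). All 6 posterior gut Hox genes lay below 0 (median -0.23), with 0 past the test. At an unadjusted limma p under 0.05, 4 were lower (8.1% of all genes) and 0 higher (6.22%). Their mean was -0.65, -0.50, -0.23 and -0.0061 relative to the Trim58+/+ mean in Trim58-/- replicates 1 to 4, and 0.02, 0.11, -0.17 and 0.05 in Trim58+/+ replicates 1 to 4. Hoxb13 differed by -0.91 (limma adjusted p = 0.125) and Hoxd11 by -0.38 (limma adjusted p = 0.297). The part of the position of the colon sample in the B cell values was not tested.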
